A study of Mus musculus with 4 samples.

Results

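Chaperones are proteins that keep other proteins folded. Their genes were followed here in cells labelled as Dalton's lymphoma ascites (DLA). DLA is known as a transplantable mouse lymphoma line carried as an ascites, that is, as suspended cells in the belly cavity. The members were every annotated probe set on the array whose listed gene symbols included one of the HSP70 (Hspa), HSP110 (Hsph), HSP90 (Hsp90), HSP60 and HSP10 (Hspd and Hspe), small heat shock protein (Hspb) or J-domain (Dnaja, Dnajb, Dnajc) families, or a subunit of the chaperonin TRiC (Cct2 to Cct8 and Tcp1). The rule used gene names alone, but it was chosen with earlier results of these data known. It gave 112 of 23410 annotated probe sets, which stood for 80 of the 21335 annotated genes. Of these probe sets, 102 listed 1 gene symbol, covering 79 genes, and 10 listed several. Hsp90ab1 was not analysed here.

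The data were 4 one-colour arrays, 2 from DLA cells of irradiated mice and 2 from DLA cells of control mice. All mice were male Swiss albino mice, 4 to 5 months old, that had received 1000000 DLA cells into the peritoneal cavity. The irradiated mice were given 2 Gy of electron radiation to the whole body on day 8 after transplantation, and the control mice were not irradiated. Cells of the irradiated mice were taken 48 h after irradiation. The time for the control mice was not among the sample details used here. The labels call the arrays biological replicates 1 and 2 of each group. They do not say whether an array was made from 1 mouse or from pooled mice, so p-values measure the spread between these arrays alone.

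HSP70 proteins bind unfolded stretches of other proteins and let go of them in a cycle that runs on ATP. J-domain proteins bring clients to HSP70 and start the cycle, and HSP110 proteins such as Hsph1 reset it by exchanging the nucleotide. HSP90 completes the folding of kinases and hormone receptors, HSP60 with its lid HSP10 forms a folding chamber in mitochondria, and TRiC is a ring in the cytosol that folds actin and tubulin. The heat shock factor HSF1 drives many of the cytosolic genes by binding heat shock elements, while the chaperones of the endoplasmic reticulum (ER) are induced by the unfolded protein response through the ER stress element.

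The arrays did not spread equally, which bears on every value below. Across the 23410 annotated probe sets, which are not independent replicates, the SD of the difference between the irradiated arrays was 0.428 on the log2 scale, against 0.168 between the control arrays. Across the 112 members the same SDs were 0.318 and 0.145. Irradiated replicate 2 stood farther from the controls, with member SDs of 0.357 and 0.327, than irradiated replicate 1, with 0.185 and 0.193. Array medians over all rows lay between 6.43 and 6.46.

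The labelled cell type was checked against marker genes. The 6 measured of 7 T cell markers averaged between 4.38 and 6.19, the 5 measured of 6 B cell markers between 4.01 and 5.94, and the 3 leukocyte markers (Ptprc, Coro1a and Laptm5) between 5.58 and 6.33 on the log2 scale. All of these were under the median of 6.71 over annotated probe sets, so defining lymphocyte genes gave low signals. The lymphoma identity thus rests on the label, and these markers did not bear it out. Of the 6 epithelial markers, 5 were above that median, with means of up to 13.85 for Krt8, and Cdh1 was below it at 6.14. All 6 were lower in irradiated cells, 3 of them at an unadjusted p under 0.05 in limma. They summed to 32891 and 20796 on the linear scale in irradiated replicates 1 and 2, against 40922 and 40504 in the control arrays. Of the 10 neutrophil markers, 8 were lower and 2 higher in irradiated cells, with a median log2 difference of -0.73, and at an unadjusted p under 0.05 in limma 6 were lower and 1, Ly6g, was higher. The 10 summed to 4600 and 4194 in the irradiated arrays, against 1149 and 1290 in the control arrays. Without Ly6g the sums ran the other way, at 389 and 399, against 681 and 838. All of the 10 but Ly6g, that is 9, had means under the median of 6.71, so these were low signals. The 8 macrophage markers summed to 1203 and 1091, against 1076 and 1086. Of these 8, 4 were higher and 4 lower in irradiated cells, and 5 had means under the median of 6.71, Mrc1 and Csf1r among them. At an unadjusted p under 0.05 in limma, Mrc1 and Lyz2 were higher (log2 differences 0.90 and 0.57) and Csf1r was lower (-0.52). The sum over the 2 measured of 10 erythroid markers was 151 and 147 in the irradiated arrays, against 171 and 167 in the control arrays. Both had means under the median of 6.71. Of this pair, Alas2 was lower, at an unadjusted p under 0.05 in limma, and Slc4a1 was higher. By this p rule 9.46% of all annotated probe sets differed. The part of these cell types in the chaperone values was not tested.

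Irradiated cells were set against control cells to see how chaperone messenger RNA stood 48 h after irradiation. None of the 112 members passed an adjusted p of 0.05 in limma with Benjamini-Hochberg adjustment, a threshold that 0.0256% of all annotated probe sets passed. At an unadjusted p under 0.05, 5 members differed, 3 higher and 2 lower in irradiated cells, where 4.82% of all annotated probe sets were higher and 4.64% lower by this rule. The 5 are 4.46% of the members, against 9.46% of all annotated probe sets and 13.2% of those at or above the median level. No member differed by 1.5-fold or more, a size that 3.28% of all annotated probe sets reached. The largest difference of any member was 1.44-fold. Of the members, 55 were higher, 56 lower and 1 equal in irradiated cells, where 44.5% of all annotated probe sets were higher and 54.4% lower. The members' median log2 difference was -0.005, against -0.025 over all annotated probe sets. Counted once a gene by the brightest probe set with 1 symbol, 32 of 79 genes were higher and 47 lower. The groups did not overlap for 57 members, 26 higher and 31 lower, where 17.9% of all annotated probe sets were higher without overlap and 23.6% lower. This was 50.9% of the members, against 41.5% of all annotated probe sets and 49.3% of those at or above the median level, where 95 of the 112 members lay. In these bulk samples, fewer cells of a type and less RNA per cell cannot be told apart.

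**Figure D1:**
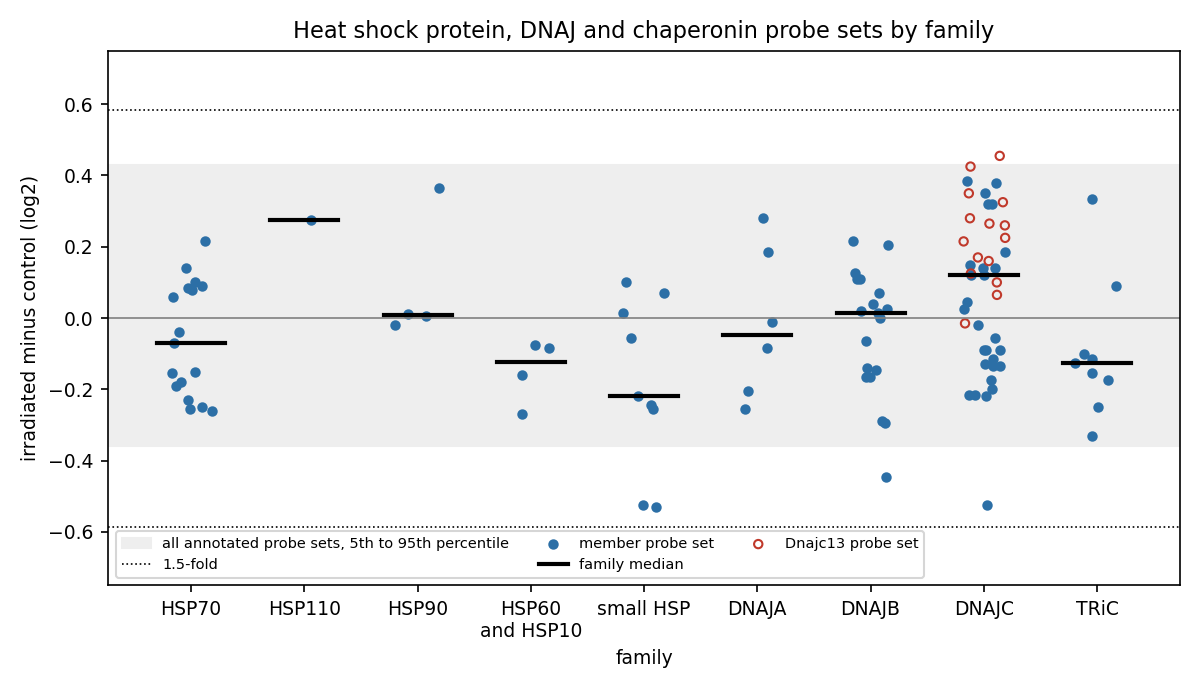
Difference between irradiated and control cells (log2, y axis) for each of the 112 member probe sets, by family (x axis), with the family median as a bar, the range from the 5th to the 95th percentile of all annotated probe sets shaded (-0.36 to 0.43) and 1.5-fold as dotted lines. No probe set reaches 1.5-fold, and the 15 Dnajc13 probe sets (open circles) lie mostly above the DNAJC median of 0.12.

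**Figure D2:**
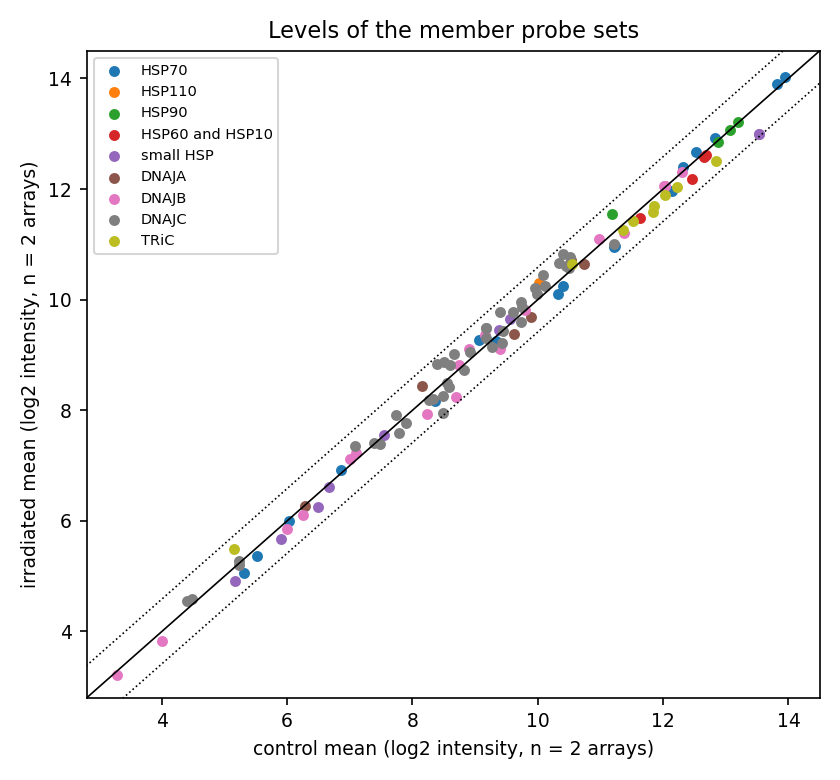
Mean log2 intensity of each member probe set in irradiated cells (y axis) against control cells (x axis), 2 arrays each, coloured by family, with equality as a solid line and 1.5-fold as dotted lines. All 112 points lie inside the dotted lines, from the dimmest member with a mean of 3.25 over the 4 arrays to the brightest with 13.98.

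The 5 members with an unadjusted p under 0.05 came from 4 families and did different work. Hsp90b1, the HSP90 of the ER known as GRP94, measured 11.47 and 11.63 in irradiated cells, against 11.21 and 11.16 in control cells. Both irradiated arrays were above both control arrays, by 0.37 ± 0.12 on the log2 scale (difference ± standard error, limma adjusted p = 0.496). Dnajc9, a J-domain protein that also acts as a histone chaperone, measured 8.81 and 8.95, against 8.54 and 8.46. It was 1.30-fold higher without overlap of the groups (limma adjusted p = 0.496). Cct6b, a variant of the CCT6 subunit known from testis, measured 5.48 and 5.50, against 5.18 and 5.13. Its log2 difference was 0.34 (limma adjusted p = 0.496), on a probe set with a low signal. Dnajc12, a J-domain co-chaperone of the aromatic amino acid hydroxylases, measured 7.96 and 7.95 in irradiated cells, against 8.51 and 8.45 in control cells. It had the smallest p of all members, with irradiated cells 1.44-fold lower (log2 difference -0.53 ± 0.11, limma adjusted p = 0.416). Dnajb14, a J-domain protein anchored in the ER membrane, measured 7.89 and 7.98, against 8.26 and 8.19. Its log2 difference was -0.29 (limma adjusted p = 0.528). The 2 probe sets listing both Dnajb14 and Pin4 ran the other way, at 0.21 and 0.22.

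The HSP70 family had a median difference of -0.07 over 17 probe sets, 7 higher and 10 lower. Hspa8, the constitutive cytosolic HSP70, was measured by 3 probe sets with 1 symbol, and the brightest gave 14.00 and 14.05 in irradiated cells, against 13.92 and 13.96 in control cells. All 3 had both irradiated arrays above both controls, yet the differences were small, at 0.08, 0.09 and 0.10. A pair of probe sets listing Hspa8 together with the small nucleolar RNAs Snord14c and Snord14d, which lie in introns of Hspa8, went the other way, at -0.25 and -0.26. The probe set listing both heat-inducible copies, Hspa1a and Hspa1b, measured 10.11 and 10.09 in irradiated cells, against 10.30 and 10.36 in control cells. Irradiated cells were lower without overlap (log2 difference -0.23 ± 0.11, limma adjusted p = 0.573). The probe set listing Hspa1a alone measured 6.97 and 6.87, against 6.77 and 6.95, so its groups overlapped. Hspa9, the mitochondrial HSP70, measured 11.93 and 12.00, against 12.18 and 12.11, with a log2 difference of -0.18 (limma adjusted p = 0.633). Hspa2, known from male germ cells, had a difference of -0.19 and Hspa4, an HSP110 type exchange factor, one of 0.09. Hspa13, a member associated with ER membranes, had the highest difference of the family, 0.22, with 9.23 and 9.32 in irradiated cells, against 9.01 and 9.11 in control cells.

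Hsph1, the HSP110 that releases nucleotide from HSP70, measured 10.23 and 10.37 in irradiated cells, against 10.06 and 9.99 in control cells. The groups did not overlap (log2 difference 0.28 ± 0.12, limma adjusted p = 0.547). Hsp90aa1, the inducible cytosolic HSP90, did not separate the groups on any of its 3 probe sets. The brightest measured 13.27 and 13.14 in irradiated cells, against 13.18 and 13.22 in control cells, and the 3 differences were 0.005, 0.01 and -0.02.

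Hspd1 and Hspe1, which encode HSP60 and HSP10, were lower in irradiated cells on all 4 probe sets, with a median of -0.12. It was -0.03 when irradiated replicate 2 was left out and -0.215 when irradiated replicate 1 was. The brighter Hspd1 probe set measured 12.29 and 12.08, against 12.40 and 12.51, and its groups did not overlap (log2 difference -0.27, limma adjusted p = 0.576). The other Hspd1 probe set measured 11.56 and 11.38, against 11.43 and 11.83, and its groups overlapped. The brighter Hspe1 probe set measured 12.71 and 12.51, against 12.72 and 12.65, with a difference of -0.08 (limma adjusted p = 0.860). Irradiated replicate 2 was the lowest array for each of the 4 probe sets, as it was for 37.7% of all annotated probe sets and 39.3% of those at or above the median level.

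The small heat shock proteins, which hold unfolding proteins without ATP, had a median of -0.22 over 9 probe sets, of which 2 belong to Hspb1. Counted once a gene the median was -0.14 over 8 genes, against -0.17 for the 2 HSP60 and HSP10 genes. The size of the median over probe sets rested on irradiated replicate 2. This median was -0.03 without that array and -0.31 without irradiated replicate 1. Irradiated replicate 2 was the lowest array for 8 of the 9, as it was for 37.7% of all annotated probe sets. Hspb1, the small HSP25 of mouse that stabilises actin filaments, measured 13.32 and 12.68 in irradiated cells, against 13.53 and 13.53 in control cells. Irradiated cells were 1.44-fold lower (log2 difference -0.53 ± 0.23, limma adjusted p = 0.547). The other Hspb1 probe set gave 13.31 and 12.69, against 13.54 and 13.51. Without irradiated replicate 2 the differences of the pair were -0.22 and -0.21, and without irradiated replicate 1 they were -0.84 and -0.85. The same array also had the lower sum of epithelial markers, 20796. Hspb7 and Hspb3, known from heart and muscle, were lower without overlap by log2 differences of -0.25 and -0.22 on dim probe sets. Hspb8, a partner of Bag3 in selective autophagy, measured 9.64 and 9.27, against 9.46 and 9.31, and its groups overlapped.

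J-domain genes formed the largest set. Among DNAJA genes the median over 6 probe sets was -0.05. Dnaja1, the main cytosolic J-domain partner of Hspa8, measured 10.71 and 10.72 on its brighter probe set in irradiated cells, against 10.53 and 10.53 in control cells. The irradiated arrays were higher without overlap on both one-symbol probe sets, by 0.19 and 0.28 (limma adjusted p = 0.620 and 0.542). A probe set listing Dnaja1 with the microRNA gene Mir207 ran the other way, at -0.21. Dnaja3, the mitochondrial J-domain protein, measured 9.31 and 9.43, against 9.68 and 9.57, with a difference of -0.26 (limma adjusted p = 0.571).

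Among the DNAJB genes the median was 0.02 over 19 probe sets, and -0.14 over 13 genes with 1 probe set each. Dnajb1, the heat-inducible HSP40, measured 10.12 in irradiated replicate 1 and 9.49 in irradiated replicate 2, against 9.81 and 9.77 in control cells. The irradiated arrays thus lay on either side of the controls, and the difference was 0.02 (limma adjusted p = 0.988). Dnajb2, a neuronal J-domain protein that passes clients to the proteasome, measured 8.49 and 8.00, against 8.77 and 8.61. It was the lowest of the family, with irradiated cells 1.36-fold lower (limma adjusted p = 0.552). Dnajb12, a J-domain protein of the ER membrane, measured 9.26 and 8.95, against 9.41 and 9.39, with a difference of -0.30 (limma adjusted p = 0.578). The Dnajb6 probe set with 1 symbol differed by 0.11, and the 4 that also listed Gm4247 differed by at most 0.04.

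**Figure D3:**
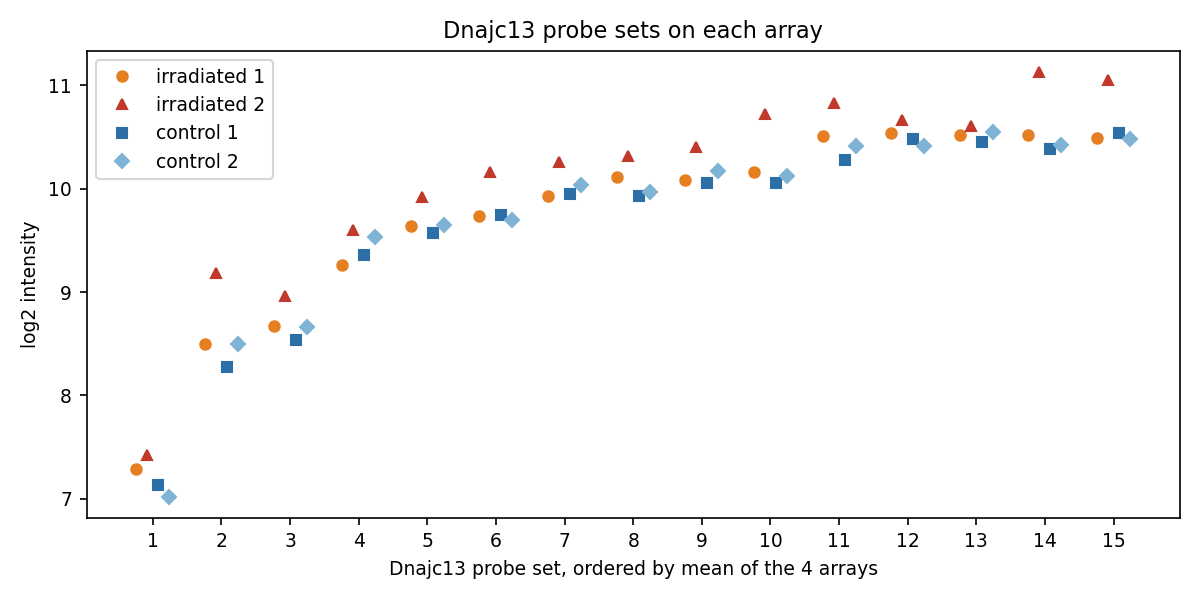
Log2 intensity (y axis) of the 15 Dnajc13 probe sets (x axis, ordered by their mean) on each of the 4 arrays. Irradiated replicate 2 is the highest array for all 15, and irradiated replicate 1 lies near the controls.

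The DNAJC genes had the widest range, from -0.53 for Dnajc12 to 0.46 for a Dnajc13 probe set. The median was 0.12 over 43 probe sets, but 15 of these belonged to Dnajc13, and over 28 genes with 1 probe set each it was -0.04. Dnajc13, a J-domain protein of endosomes that works with Hspa8, was higher in irradiated cells on 14 of its 15 probe sets, with a median of 0.23. The probe set with the largest difference measured 8.50 and 9.18 in irradiated cells, against 8.27 and 8.50 in control cells. Irradiated replicate 2 was the highest array on all 15 probe sets, as it was for 30.3% of all annotated probe sets. The median over the 15 was 0.07 in irradiated replicate 1 and 0.36 in irradiated replicate 2, each minus the control mean. These probe sets share one transcript and are no replicates of each other. Dnajc15 and Dnajc19, J-domain proteins of the mitochondrial inner membrane, measured 10.13 and 8.24 in irradiated replicate 2. On the other arrays Dnajc15 measured 9.44 in irradiated replicate 1, against 9.45 and 9.35 in control cells. Dnajc19 measured 7.60 in irradiated replicate 1, against 7.71 and 7.76 in control cells. Dnajc8, a J-domain protein linked to the spliceosome, was higher without overlap, at 8.84 and 9.19, against 8.67 and 8.66 (limma adjusted p = 0.554).

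TRiC subunits leaned the other way in one array. Cct2 measured 12.73 and 12.29 in irradiated cells, against 12.81 and 12.87 in control cells (log2 difference -0.33 ± 0.18, limma adjusted p = 0.599). Cct4 was the subunit whose irradiated arrays lay closest together, at 11.59 and 11.58, against 11.82 and 11.85. Its log2 difference was -0.25 ± 0.11 (limma adjusted p = 0.551). Cct6a measured 12.19 and 11.90, against 12.21 and 12.23, and was lower without overlap (limma adjusted p = 0.696). Cct3 measured 12.05 and 11.75, against 12.13 and 11.92. Cct5 gave 11.58 and 11.25, against 11.54 and 11.49, Cct7 gave 11.49 and 11.01, against 11.42 and 11.31, and Tcp1, the first subunit of the ring, gave 11.85 and 11.54, against 11.89 and 11.81. For Cct3, Cct5, Cct7 and Tcp1 the groups overlapped: irradiated replicate 1 was within or above the control range and irradiated replicate 2 was below it. Cct8 measured 10.73 and 10.55, against 10.57 and 10.53. Irradiated replicate 2 was the lowest array for 7 of the 9 TRiC probe sets, as it was for 37.7% of all annotated probe sets. The family median was -0.13, and it was 0.03 in irradiated replicate 1 and -0.28 in irradiated replicate 2, each minus the control mean.

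**Figure D4:**
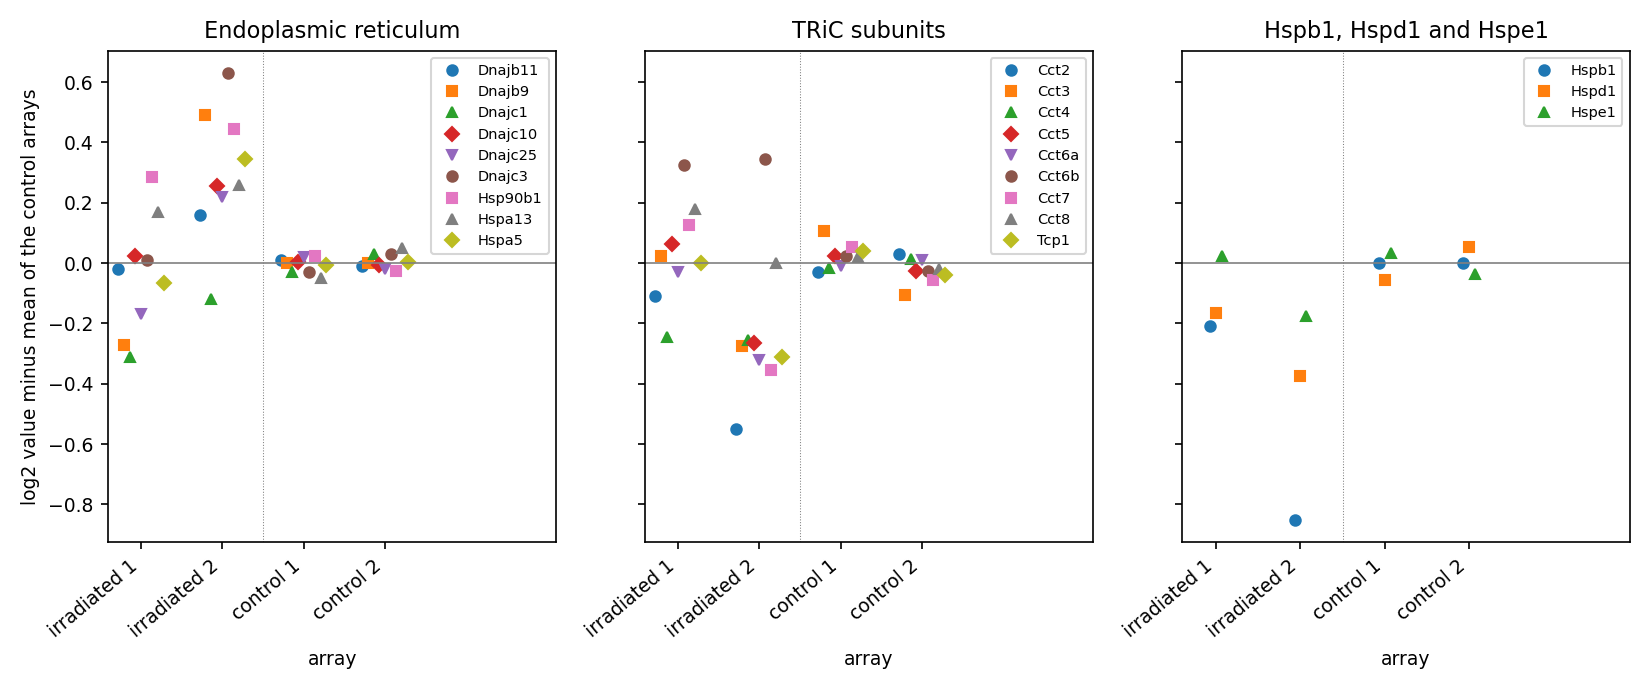
Log2 value minus the mean of the control arrays (y axis) on each of the 4 arrays (x axis) for the 9 listed ER genes, the 9 TRiC subunits, and Hspb1, Hspd1 and Hspe1 (brightest probe set of each gene). Irradiated replicate 2 is the highest array for 8 of the 9 listed ER genes and the lowest for 7 of the 9 TRiC subunits, and the control points lie near 0. Over all annotated probe sets, irradiated replicate 2 is the highest array for 30.3% and the lowest for 37.7%.

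Grouped by where the protein works, most of the 9 genes listed as ER chaperones were highest in irradiated replicate 2. Of these 9, 8 were higher and 1 lower in irradiated cells, with a median of 0.14. Irradiated replicate 2 was the highest array for 8 of them, as it was for 30.3% of all annotated probe sets and 28.7% of those at or above the median level. Leaving out irradiated replicate 1 gave a median of 0.26, and leaving out irradiated replicate 2 gave -0.02. Hspa5, the ER HSP70 known as BiP, measured 12.46 and 12.87 in irradiated cells, against 12.52 and 12.53 in control cells (log2 difference 0.14, limma adjusted p = 0.793). Dnajb9, a J-domain partner of BiP, had the widest gap between irradiated arrays of any member, at 10.71 and 11.47, against 10.98 and 10.98. Dnajc3, which restrains the kinase PERK, measured 9.18 and 9.80, against 9.14 and 9.20, and its 2 probe sets held identical values. Dnajb11, another partner of BiP, measured 8.72 and 8.90, against 8.75 and 8.73. Hsp90b1 and Hspa13 were the listed ER genes that were higher in both irradiated arrays by over 0.15, and Dnajc1 was the lower one of the 9, at 8.17 and 8.36, against 8.45 and 8.51. The list leaves out 5 J-domain members of the ER membrane (Dnajb12, Dnajb14, Dnajc14, Dnajc16 and Dnajc18), all of them lower in irradiated cells, with log2 differences between -0.295 and -0.09. With these added, a choice made after the values were seen, 8 of 14 genes were higher and 6 lower, the median was 0.05, and irradiated replicate 2 was the highest array for 10 of the 14.

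Promoter sequences are shown for the genes that held an ER stress element and for 2 with matches to parts of the heat shock element, Hspe1 and Hspb1. RefSeq promoter entries (GRCm38.p6) were matched for 66 of the 80 genes, and the 250 bases before the annotated start were searched on both strands. The ER stress element, CCAAT followed after 9 bases by CCACG, was found in 3 of the 66, namely Hspa5, Hsp90b1 and Dnajc3, and in 0.1295% of all 27025 genes with an entry. Some genes have several entries, and a gene was counted when any of them held the motif. CCAAT alone, which every such element holds, was found in 27 of the 66 genes, against 37.49% of all genes. TATAAA was found in 4, against 14.33%, and TGACGTGG, another motif linked to the unfolded protein response, in 1 (Dnajc25), against 0.6031%. Below, each sequence runs from 250 bases before the start up to the start, and capitals mark the element on either strand.
Hspa5 (chr2:34771840-34772089, plus strand): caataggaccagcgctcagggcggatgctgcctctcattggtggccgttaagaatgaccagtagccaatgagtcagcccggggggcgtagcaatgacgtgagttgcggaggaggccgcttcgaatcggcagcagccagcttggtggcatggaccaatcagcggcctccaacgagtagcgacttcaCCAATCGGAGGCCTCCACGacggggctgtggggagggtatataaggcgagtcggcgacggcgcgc
Hsp90b1 (chr10:86705445-86705694, minus strand): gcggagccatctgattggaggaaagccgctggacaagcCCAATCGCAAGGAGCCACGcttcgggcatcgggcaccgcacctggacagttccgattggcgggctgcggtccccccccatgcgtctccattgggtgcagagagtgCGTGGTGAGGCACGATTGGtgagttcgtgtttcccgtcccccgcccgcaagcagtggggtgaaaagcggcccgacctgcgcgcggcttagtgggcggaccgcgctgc
Dnajc3 (chr14:118937682-118937931, plus strand): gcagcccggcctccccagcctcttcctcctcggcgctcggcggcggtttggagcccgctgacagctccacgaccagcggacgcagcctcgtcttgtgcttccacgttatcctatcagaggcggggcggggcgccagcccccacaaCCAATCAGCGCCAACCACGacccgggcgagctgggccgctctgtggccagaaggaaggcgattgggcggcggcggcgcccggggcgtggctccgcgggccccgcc

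All 3 of these genes were highest in irradiated replicate 2, and Hsp90b1 alone of the 3 was above both controls in irradiated replicate 1 as well. Dnajb9 and Dnajb11 were also highest in irradiated replicate 2, and these letters were not found in their windows. The heat shock element was searched as the palindromes GAANNTTC and TTCNNGAA, which share their GAA and TTC units and overlap where units run on. GAANNTTC was found in 12 of the 66 genes, against 7.726% of all genes, and TTCNNGAA in 7 of the 66, against 8.115%. A run of at least 3 units, in which one palindrome goes on into the other through a shared unit, was found in 3 of the 66, namely Hspd1, Hspe1 and Dnajb6, against 0.5143% of all genes. The run was 3 units long in Dnajb6 and 4 units long in Hspd1 and Hspe1. The windows of Hspd1 and Hspe1 overlap on opposite strands of chromosome 1, so both hold the same element, and Hspe1 is shown. Capitals mark both palindromes.
Hspe1 (chr1:55087898-55088147, plus strand): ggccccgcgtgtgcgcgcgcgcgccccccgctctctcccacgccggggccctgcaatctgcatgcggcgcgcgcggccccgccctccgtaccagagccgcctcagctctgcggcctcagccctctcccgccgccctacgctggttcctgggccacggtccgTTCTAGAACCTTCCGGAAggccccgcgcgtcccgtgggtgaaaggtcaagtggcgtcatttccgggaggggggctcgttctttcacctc
Hspb1 (chr5:135887669-135887918, plus strand): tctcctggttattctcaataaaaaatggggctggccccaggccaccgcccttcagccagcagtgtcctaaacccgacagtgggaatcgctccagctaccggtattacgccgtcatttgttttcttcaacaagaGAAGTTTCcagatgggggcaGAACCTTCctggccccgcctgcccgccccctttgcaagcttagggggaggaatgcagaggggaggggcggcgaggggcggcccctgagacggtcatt

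Genes with either palindrome did not share 1 direction. Only Hspd1, Hspe1 and Dnajb6 among them held the run of at least 3 units. Of 16 genes that held either palindrome, 15 had a probe set with 1 symbol, and 6 of these were higher and 9 lower in irradiated cells. Over all annotated probe sets 44.5% were higher and 54.4% lower. Hsph1, Dnaja1, Dnajb6, Dnajc10, Hspa1a and Hspb6 were higher, and Hspd1, Hspe1, Hspb1, Hspb3, Cct2, Cct5, Dnaja4, Dnajb4 and Dnajc27 were lower. Hspa1a and Dnajb6 were counted by the dimmer probe sets that list them alone. The brighter probe set listing Hspa1a and Hspa1b was lower without overlap, at -0.23. The brighter ones listing Dnajb6 with Gm4247 differed by at most 0.04. The values are those of these 4 arrays, and a match of letters is a description of the window.

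Among the 10 measured genes of the heat-inducible cytosolic list, 8 were higher and 2 lower, with a median of 0.07. No gene of the list passed an unadjusted p of 0.05 in limma. Over all annotated probe sets 44.5% were higher. Hsph1, Dnaja1, Hspa4, Hspa8, Hspb8, Hspa1a, Dnajb1 and Hsp90aa1 were on the higher side, and Hspb1 and Hspa4l on the lower side. The list thus includes Hspa8, named above as constitutive. Dnajb1 and Hsp90aa1 were higher by only 0.015 and 0.005. Hspa1a entered with its dim probe set that lists it alone. With the brighter probe set listing Hspa1a and Hspa1b in its place, a choice made after the values were seen, 7 were higher and 3 lower and the median was 0.04. Among the 10 genes listed as mitochondrial, 2 were higher and 8 lower, with a median of -0.10, where 54.4% of all annotated probe sets were lower. None of the 10 passed an unadjusted p of 0.05 in limma, a rule that 9.46% of all annotated probe sets met. This list held Hspa9, Hspd1, Hspe1, Dnaja3, Dnajc4, Dnajc11, Dnajc28 and Dnajc30 on the lower side and Dnajc15 and Dnajc19 on the higher side. It leaves out mitochondrial genes that were read with the co-chaperones. Among those, Trap1 was higher, with a log2 difference of 0.19. Grpel1, Grpel2 and Tomm70a were lower, at -0.065, -0.245 and -0.03.

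Heat shock factors and co-chaperones that are not members were read alongside. Of 41 listed genes, 39 were measured, and none passed the adjusted threshold in limma, while 1 was higher and 1 lower at an unadjusted p under 0.05. These 2 are 5.13% of the 39, against 9.46% of all annotated probe sets. Their median was -0.03, with 15 higher, 23 lower and 1 equal. Pfdn5, a subunit of the prefoldin that hands actin and tubulin to TRiC, measured 10.37 and 10.27 in irradiated cells, against 10.83 and 10.85 in control cells (log2 difference -0.52, limma adjusted p = 0.428). Ahsa2, related to the HSP90 activator Aha1, measured 8.81 and 8.74, against 8.39 and 8.54 (limma adjusted p = 0.523). Sdf2l1, an ER partner of BiP and Dnajb11, measured 9.58 and 10.24, against 9.48 and 9.19 (limma adjusted p = 0.551). Other ER genes of the list, Hyou1, Sil1 and Serpinh1, were lower, with log2 differences of -0.02, -0.165 and -0.105. Irradiated replicate 2 was the lowest array for Sil1 and Serpinh1. Fkbp5, an HSP90 immunophilin, measured 9.27 and 8.26, against 9.54 and 9.39 (limma adjusted p = 0.575). For both Sdf2l1 and Fkbp5, irradiated replicate 2 lay farther from the controls than irradiated replicate 1. Hsf2, a heat shock factor, measured 9.61 and 9.99, against 9.98 and 9.98 (limma adjusted p = 0.720). Hsf1 was not analysed here.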

How the data were processed

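The authors deposited log2 probe set intensities of 4 arrays, summarised by RMA per the submitters' processing notes, after labelling of 300 ng of total RNA per the labels' protocols. Its version, build and annotation: not given in the sources used here. RMA gives all arrays one distribution of probe intensities before they are summarised, so the probe set values need not share one exactly. This step hides a shift common to most genes, and RMA compresses folds of dim probe sets. The table held 35556 probe sets, with 0 columns of other samples.

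Of these, 23410 were named by the platform's annotation table, 21789 with 1 symbol and 1621 with several. Member symbols are all current in the RefSeq gene table (GRCm38.p6), and no symbol elsewhere in the table became a member when updated. A several-symbol probe set is given under all its symbols. The difference was fitted by limma 3.58.1 (R 4.3.3; lmFit, eBayes, two-sided), with 2 residual and 3.11 prior degrees of freedom and Benjamini-Hochberg adjustment over all annotated probe sets at 0.05. No filter on low values was used. Lists outside the members took the brightest one-symbol probe set of a gene. The procedure was tested on data simulated with the same spread in both groups. That test does not cover the unequal spread of the arrays used here. Probe sequences, scan dates and slides were not used here. No batch was therefore tested, and the number of arrays limits the precision.

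Named were the 5 highest and 5 lowest bright members, up to 4 with the smallest p in each family, a fixed list of core chaperones, the 5 with the largest gap between irradiated arrays, and 4 co-chaperones with Hsf2. Others were named after their values were seen. The members and lists were chosen with earlier results of these data known. The alternatives are given in the closing section.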

Additional observations from a re-analysis of the deposited data

How the results depend on the processing

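No member and no co-chaperone passed an adjusted p of 0.05 in limma under any of the alternatives run, and the smallest adjusted p of a named gene in any of them was 0.113. Without one array, the members at an unadjusted p under 0.05 ranged from 0 to 24 higher and from 0 to 18 lower. The highest counts came without irradiated replicate 1, where the lone irradiated array is assumed to vary like the controls. Leaving out irradiated replicate 2 in the same way gave 6 higher and 11 lower. Leaving out a control array gave 0 higher and 0 lower (control replicate 1) or 0 higher and 1 lower (control replicate 2). For co-chaperones they ranged from 0 to 3 higher and from 0 to 8 lower. The replicate numbers are not known to pair the arrays: deviations of same-numbered arrays correlated with r = 0.0042 over all annotated probe sets and 0.254 over the 112 members. With the replicate number as a block, 1 member was higher at an unadjusted p under 0.05 and 0 co-chaperones were. The count of lower members was 1 with median centring, with robust eBayes and with every row of the table, and 4 with an eBayes trend. At 1.5-fold or 2-fold the counts of higher and of lower members were both 0. Higher co-chaperones were 0 with quantile normalization and with every row of the table.

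Without one array, family medians ranged from -0.085 to -0.005 for HSP70, -0.048 to 0.088 for HSP90, -0.215 to -0.03 for HSP60 and HSP10, -0.305 to -0.025 for small heat shock proteins, -0.135 to 0.04 for DNAJA, -0.015 to 0.035 for DNAJB, -0.02 to 0.255 for DNAJC, and from -0.275 to 0.025 for TRiC. They ranged from -0.02 to 0.09 for heat-inducible cytosolic, from -0.02 to 0.26 for ER and from -0.16 to -0.115 for mitochondrial genes. With 1 value a gene the medians were 0.185 (brightest probe set) and 0.18 (mean) for HSP90, -0.14 in both cases for DNAJB and -0.038 in both for DNAJC, where Dnajc13 no longer counts 15 times. Among probe sets at or above the median level they were -0.005 for HSP70, 0.015 for small heat shock proteins and -0.13 for mitochondrial genes, the last also above the 25th percentile. DNAJB had 0.059 with quantile normalization and 0.04 with median centring, and mitochondrial genes -0.078 with median centring. Of 66 named probe sets, 18 took the opposite sign in at least 1 fit of 3 arrays. Over these fits the log2 differences ranged from -0.145 to 0.105, -0.035 to 0.055 and -0.06 to 0.07 for the 3 Hsp90aa1 probe sets, from -0.36 to 0.04 for an Hspd1 probe set, and from -0.18 to 0.01 and -0.175 to 0.025 for the Hspe1 pair. They ranged from -0.03 to 0.15 for Hspa1a, -0.065 to 0.345 for Hspa5, -0.115 to 0.255 for Hspb8, -0.3 to 0.33 for Dnajb1, -0.005 to 0.225 for Dnajb6, -0.27 to 0.49 for Dnajb9, -0.02 to 0.16 for Dnajb11 and -0.135 to 0.505 for Dnajc19. They ranged from -0.275 to 0.025 for Cct3, -0.265 to 0.065 for Cct5, -0.355 to 0.125 for Cct7 and -0.37 to 0.01 for Hsf2. Among the other alternatives, 1 Hsp90aa1 probe set changed sign, to 0.054 with quantile normalization and 0.005 with median centring. The cause of these shifts was not tested.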
